A study of Mus musculus with 4 samples.

Results

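Homeobox genes, with all Hox genes, were followed in the cerebellum of mice at postnatal day 14 (P14) with and without Kdm6b in granule neuron precursors. The 72 genes described here were 33 homeobox genes chosen by name and the 39 genes of the Hoxa, Hoxb, Hoxc and Hoxd clusters, taken by symbol out of the 55341 genes counted in each library. Kdm6b encodes a histone demethylase that erases trimethylation of H3K27, the mark by which Polycomb complexes keep genes silent. The questions were which homeobox genes P14 cerebellum expressed, and whether those that were expressed or silent differed in level when Kdm6b was deleted.

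The cKO mice were Atoh1-Cre; Kdm6b fl/fl, and the WT mice were Kdm6b fl/fl littermates without Cre, with 2 libraries from 2 mice in each group. Both groups thus carried 2 floxed Kdm6b alleles, whose loxP sites flank the exons of the catalytic domain, and their genotypes differed by the presence of Cre. Atoh1, which drives the Cre, is expressed in granule neuron precursors and in the progenitors of some other glutamatergic neurons of the cerebellum, and the dissected tissue also held cells outside that lineage. Each replicate was cerebellar tissue of an individual mouse, from which poly(A) RNA was sequenced.

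The homeobox encodes the homeodomain, a DNA-binding fold shared by transcription factors that set regional and cell type identity in the embryo. Hox genes lie in clusters and are switched on in nested domains along the body axis, and the cerebellum arises from the most anterior hindbrain, in front of the anterior limit of those domains. Outside their domains Hox clusters are textbook targets of Polycomb silencing. Other homeobox factors, among them the Barhl, Irx, Meis, Pbx, Cux, Pou and Zfhx families, stay on in postmitotic neurons or their precursors.

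Gene counts came to 9892363 and 8811849 in the cKO libraries, against 9358139 and 9421970 in the WT libraries. Kdm6b had 127 and 119 CPM (counts per 1e6 gene counts, with library sizes scaled by TMM) in the cKO libraries, against 154 and 154 CPM in the WT libraries, and was lower in cKO (log2 fold change -0.33, SE 0.076, edgeR adjusted p = 0.0162). No fit to 3 of the 4 libraries kept that call (-0.37 to -0.28). The cKO 1 library stood apart in choroid plexus RNA, with a summed level of 719 CPM over 11 marker genes, against 46.4 CPM in cKO 2 and 41.3 and 42.4 CPM in WT. The WT 1 library stood apart in RNA of noradrenergic hindbrain neurons (Dbh: 0 and 0 counts in cKO, 70 and 4 counts in WT) and in Y-linked RNA (Ddx3y: 0 and 1 counts in cKO, 654 and 0 counts in WT). The X-linked Xist had 13979 and 14272 counts in cKO, against 4 and 12588 counts in WT. WT 1 alone thus had the RNA pattern of a male mouse, so the groups also differed in sex. Without WT 1, edgeR called the same 3 homeobox genes (Barhl1, Zfhx2 and Zfhx4) as with all libraries, while DESeq2 called none of the 72 and gave Barhl1 and Zfhx4 no adjusted p. Of markers of the labelled tissue, Gabra6 of granule neurons had 4434 and 3652 counts in cKO and 5479 and 5280 counts in WT.

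Of the 72 genes, 27 had a mean of at least 1 CPM over the 4 libraries, all of them among the 33 chosen by name, and the same 27 had enough counts to be tested. A further 14 had counts but stayed under 1 CPM. The remaining 31, all of them Hox genes, had no count in any library. Of the 72, genes with at least 1 count numbered 38 and 37 in the cKO libraries, against 35 and 34 in the WT libraries. Over all genes the order was the other way, with 23762 and 23610 in cKO, against 24503 and 24244 in WT.

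Sequences are shown for the genes on which the comparisons turn. Barhl1 and Barhl2 are close relatives of which 1 differed between genotypes, and the end of their homeoboxes (bases 121 to 180 of 180), which encodes the helix that contacts DNA, is given from GENCODE M21 transcripts Barhl1-201 (chromosome 2) and Barhl2-201 (chromosome 5), with capitals where the pair differ. Over the whole homeobox 36 of 180 bases differed (80% identity), 9 of them in the 60 bases shown, and 56 of 60 codons encoded the same residue.
Barhl1: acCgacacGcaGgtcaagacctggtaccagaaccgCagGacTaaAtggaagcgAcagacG
Barhl2: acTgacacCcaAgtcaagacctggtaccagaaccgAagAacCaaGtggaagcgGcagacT

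Promoters are shown for Barhl1 and Zfhx2, which were higher in cKO, and for Evx2 and Hoxd8, which were near silent and had more counts in cKO. Each is the 250 bases before the start that RefSeq gives on GRCm38.p6, read 5′ to 3′ on the gene's strand, with CG dinucleotides in capitals. The windows were chr2:28916669-28916918 (minus strand) for Barhl1, chr14:55092049-55092298 (minus strand) for Zfhx2, chr2:74659558-74659807 (minus strand) for Evx2 and chr2:74704365-74704614 (plus strand) for Hoxd8. They held 7, 15, 14 and 6 CG in that order. The RefSeq start of Zfhx2 lies 276 bases from the GENCODE start, so its window falls inside the gene as GENCODE gives it. For Barhl1, Evx2 and Hoxd8 the starts were the same.
Barhl1: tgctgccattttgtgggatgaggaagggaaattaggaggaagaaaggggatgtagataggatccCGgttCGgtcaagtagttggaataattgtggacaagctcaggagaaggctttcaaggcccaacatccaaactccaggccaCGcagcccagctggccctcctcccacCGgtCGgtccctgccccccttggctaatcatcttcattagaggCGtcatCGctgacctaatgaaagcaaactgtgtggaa
Zfhx2: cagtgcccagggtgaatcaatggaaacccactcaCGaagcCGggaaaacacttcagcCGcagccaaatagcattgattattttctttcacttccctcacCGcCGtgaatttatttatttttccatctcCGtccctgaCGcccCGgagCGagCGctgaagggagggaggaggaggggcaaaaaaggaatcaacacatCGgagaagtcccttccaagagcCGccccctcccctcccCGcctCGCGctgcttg
Evx2: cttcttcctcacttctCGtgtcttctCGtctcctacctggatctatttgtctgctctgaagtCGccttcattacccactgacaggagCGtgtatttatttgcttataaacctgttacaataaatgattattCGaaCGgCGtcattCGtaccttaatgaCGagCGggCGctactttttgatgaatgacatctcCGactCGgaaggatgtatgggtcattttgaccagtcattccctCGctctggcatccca
Hoxd8: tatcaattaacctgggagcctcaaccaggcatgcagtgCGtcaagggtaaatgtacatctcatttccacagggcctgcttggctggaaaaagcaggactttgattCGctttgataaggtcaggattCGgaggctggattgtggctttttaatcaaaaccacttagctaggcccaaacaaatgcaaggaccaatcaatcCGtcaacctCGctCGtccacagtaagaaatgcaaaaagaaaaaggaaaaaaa

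A RefSeq promoter was matched for 49 of the 72 genes, Zfhx4 not among them. Some matched starts were far from the GENCODE start (6133 bases for Lhx9, 10049 for Hoxd4, 15461 for Hoxc4 and 772000 for Zfhx3), and their windows are kept in the values below. Their median was 14 CG in 250 bases, against 8 over all 20595 promoters and 15 over the promoters of tested genes. It was 15 for the 21 matched genes at or above 1 CPM, 18 for the 11 under 1 CPM with counts, and 12 for the 17 without counts. At least 10 CG were present in 73.5% of the matched genes, against 46.1% of all promoters and 72.1% of those of tested genes. The letters TAATTA, the same on both strands and a core that many homeodomains bind, occurred in 2 of the 49 windows, against 4.61% of all promoters.

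By level, the expressed homeobox genes ranged in mean from 2.23 CPM for Otx1 to 410 CPM for Zfhx2, with a median of 21.4 CPM. Per kilobase of exon, the scale on which genes can be set side by side, Barhl2 led with a mean of 30.6 CPM per kilobase over the 4 libraries. Uncx followed with 24.8, Zfhx2 with 22.6, Barhl1 with 15.4 and Tlx3 with 13.9 CPM per kilobase, and Zfhx3 was lowest with 0.151. Of the 26 neighbouring pairs in this order, 9 kept it within each of the 4 libraries, Barhl2 above Uncx among them, and 17 changed order in at least 1 library. For 5 of the 9 pairs the ranges over the libraries also did not overlap (the breaks after Tlx3, Pbx2, Pou2f1, Pbx4 and Pou3f4).

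**Figure D1:**
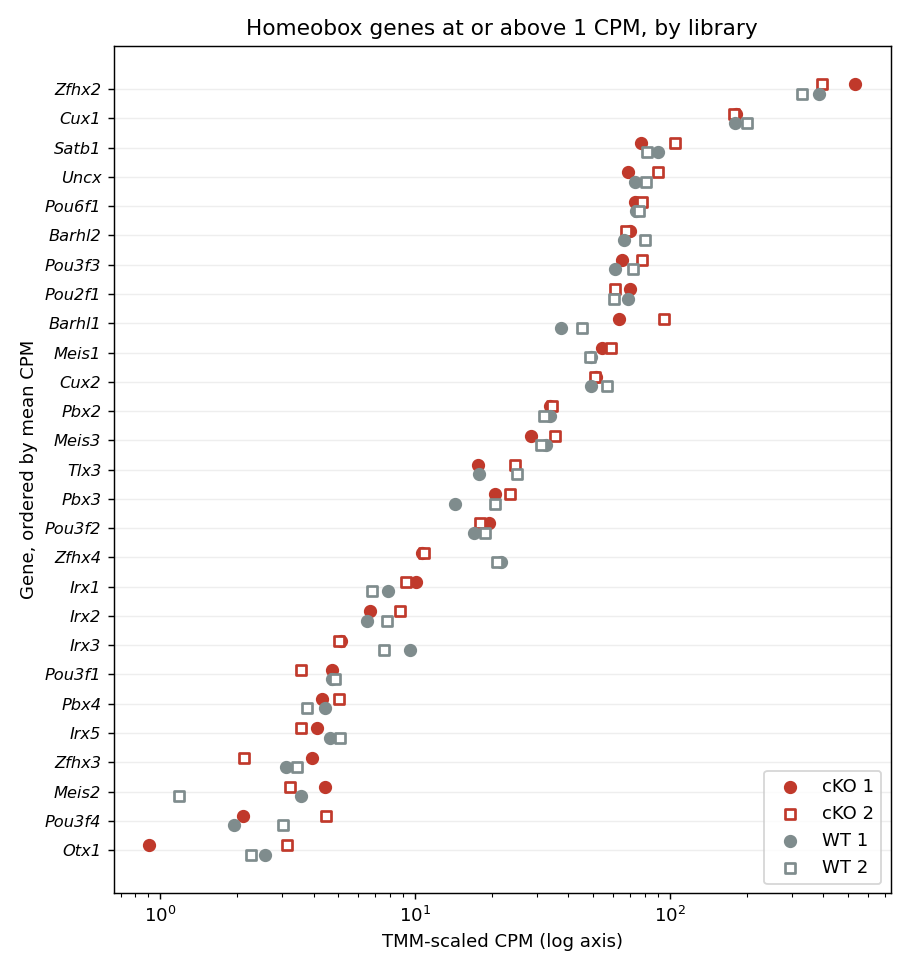
TMM-scaled CPM on a log axis for the 27 homeobox genes with a mean of at least 1 CPM, ordered by mean, in the cKO libraries (red) and WT libraries (grey), with filled circles for replicate 1 and open squares for replicate 2. Most genes had overlapping points across genotypes, while Barhl1 lay at 63.3 and 94.9 CPM in cKO against 37.4 and 45.1 CPM in WT, and Zfhx4 at 10.7 and 10.9 CPM in cKO against 21.7 and 20.9 CPM in WT.

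Most expressed homeobox genes were at similar levels in cKO and WT. Barhl1 and Zfhx2 were higher in cKO, Zfhx4 was lower, and 24 of the 27 did not pass the test. Over all tested genes 4.04% were called (1.87% higher, 2.17% lower in cKO), beside 11.1% of these 27, a difference that rests on 3 genes. The median log2 fold change of the 27 was 0.043, with 16 above 0 and 11 below, against 0.0036 over all 16617 tested genes. Changes within 0.25 on the log2 scale made up 63.0% of the 27 and 70.0% of all tested genes. The libraries of the groups did not overlap for 9 of the 27 (5 with both cKO libraries above both WT libraries, 4 below), and 46.4% of all tested genes did not overlap (23.2% in either direction). At an unadjusted p under 0.05, edgeR gave 5 of the 27, against 16.3% of all tested genes.

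**Figure D2:**
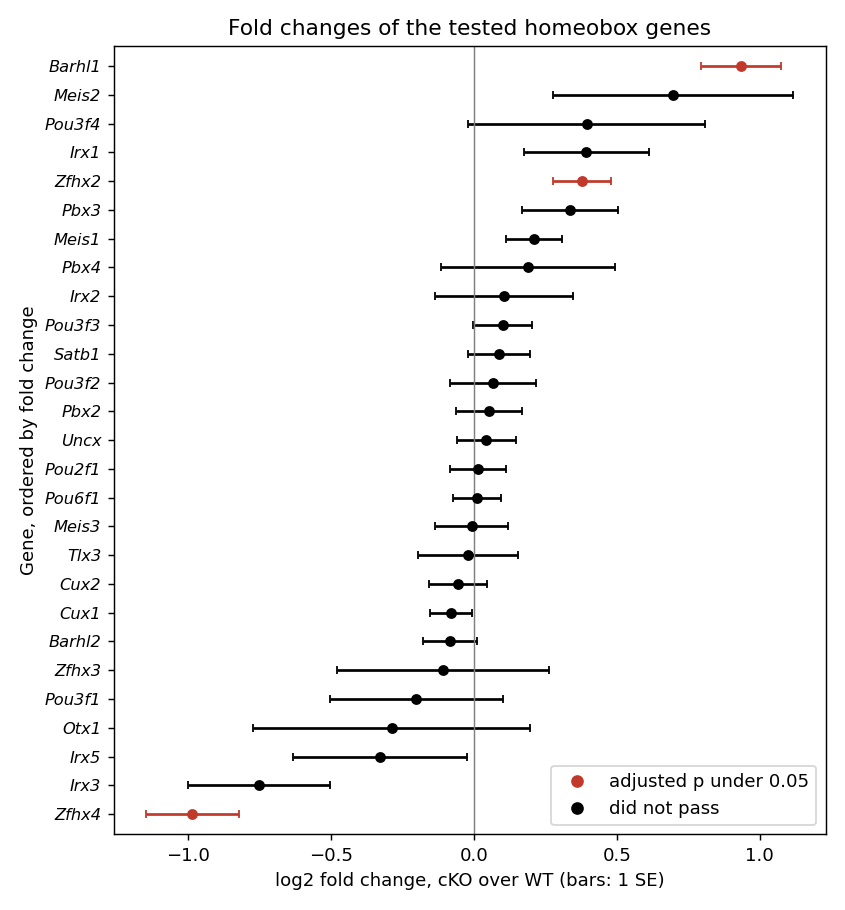
Log2 fold change, cKO over WT, from edgeR for the 27 tested homeobox genes, with bars of 1 standard error and red for adjusted p under 0.05. Barhl1 (0.93) and Zfhx2 (0.38) lie right of 0 and Zfhx4 (-0.98) left of it in red, and 17 of the 27 genes lie within 0.25 of 0.

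Barhl1 (ENSMUSG00000026805.14, chr2:28907679-28916668, minus strand, GRCm38) encodes a BarH-like factor of granule neurons and their precursors that acts in their migration and survival. It had 63.3 and 94.9 CPM in the cKO libraries, against 37.4 and 45.1 CPM in the WT libraries. Both cKO libraries lay above both WT libraries, and the cKO libraries were further apart from each other than the WT libraries were. The mean was 79.1 ± 22.3 CPM in cKO and 41.3 ± 5.45 CPM in WT (SD, n = 2 each), 0.93 higher in cKO on the log2 scale (SE 0.139, edgeR adjusted p = 3.34e-04). Without cKO 1 the log2 fold change was 1.20 (edgeR adjusted p = 0.237) and without cKO 2 it was 0.62 (edgeR adjusted p = 0.494), and when either was left out edgeR called no gene at all, although 2315 and 1718 genes and 5 of the homeobox genes each time had an unadjusted p under 0.05. DESeq2 without cKO 1 called 241 genes and kept the Barhl1 call (adjusted p = 3.67e-06), and without cKO 2 it called 83 and lost it (adjusted p = 0.591). The Barhl1 call was also lost in DESeq2 without WT 2 (adjusted p = 0.9999). In whole tissue, fewer cells of a type and less RNA per cell cannot be told apart. The other 8 genes of a granule neuron progenitor list moved the same way in sum but not 1 by 1. Their sum was 172 and 255 CPM in cKO, against 140 and 158 CPM in WT. Of the 9 genes of the list, 4 were called higher (Barhl1, Ccnd2, Mki67 and Top2a). Over all tested genes 1.87% were called higher and 2.17% lower. The groups overlapped for Mki67 (20.3 and 47.8 CPM in cKO, against 13.6 and 21.1 CPM in WT). They also overlapped for Mycn, which was not called, and for Atoh1, which was not tested (5 and 18 counts in cKO, against 4 and 7 counts in WT). For Gli1 (log2 fold change -0.08) and Gli2 (-0.59) both cKO libraries lay below both WT libraries, without a call. Ccnd1 was nearly level (0.02). Newborn granule neuron genes summed to 1937 and 2386 CPM in cKO, against 1573 and 1651 CPM in WT, with 7 of 9 called higher. Mature granule neuron genes summed to 4799 and 4370 CPM in cKO, against 5652 and 5829 CPM in WT, with 6 of 9 called lower. Unipolar brush cell genes summed to 805 and 703 CPM in cKO, against 923 and 948 CPM in WT, with 2 of 5 called lower. The part of these cells in the differences of Barhl1 and of the genes below was not tested.

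Barhl2 (chr5:106452523-106458166), the relative whose homeobox is printed above, had 69.8 and 67.5 CPM in cKO, against 65.8 and 79.7 CPM in WT. These values overlapped, with a log2 ratio of -0.08 (SE 0.095, edgeR adjusted p = 0.738) that changed sign when WT 2 was left out (0.06). Barhl1 counts divided by Barhl2 counts within each library came to 0.907 and 1.41 in cKO, against 0.569 and 0.566 in WT, a mean difference of 0.99 on the log2 scale. Both cKO ratios lay above both WT ratios, where an exact two-sided permutation test of 2 against 2 libraries cannot go below p = 0.333, the value it gave.

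The Zfhx genes encode very large proteins with several homeodomains and many zinc fingers, and they differed in level and in direction. Zfhx4 (ENSMUSG00000025255.18, chr3:5218526-5415857, plus strand) had 10.7 and 10.9 CPM in the cKO libraries, against 21.7 and 20.9 CPM in the WT libraries. The replicates lay close together in each genotype and both WT libraries were above both cKO libraries. The mean was 10.8 ± 0.128 CPM in cKO and 21.3 ± 0.518 CPM in WT (SD, n = 2 each), with a log2 ratio of -0.98 (SE 0.161, edgeR adjusted p = 8.80e-04). Without cKO 1 the log2 fold change was -0.97 (edgeR adjusted p = 0.275) and without cKO 2 it was -0.99 (edgeR adjusted p = 0.494).

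Zfhx2 (ENSMUSG00000040721.9, chr14:55060262-55092324, minus strand), the most abundant of the 72 by CPM, had 533 and 395 CPM in the cKO libraries, against 385 and 329 CPM in the WT libraries. The groups did not overlap, but cKO 2 and WT 1 lay close together. The mean was 464 ± 97.8 CPM in cKO and 357 ± 39.8 CPM in WT (SD, n = 2 each), with a log2 ratio of 0.38 (SE 0.102, edgeR adjusted p = 0.0391). The value was 0.15 without cKO 1, 0.58 without cKO 2 and 0.27 without WT 2 (edgeR adjusted p = 0.603, 0.494 and 0.144), and the call was also lost with DESeq2 (adjusted p = 0.683). On the opposite strand Zfhx2os shares 17.9% of the exon bases of Zfhx2, and its counts were 650 and 412 in cKO, against 468 and 350 in WT, without a call. Whether the counting used strand is not given in the sources used here, so reads in the shared bases were either dropped as ambiguous or assigned by strand. Zfhx3, the third of the family, had 3.93 and 2.13 CPM in cKO, against 3.13 and 3.46 CPM in WT, with overlapping groups.

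**Figure D3:**
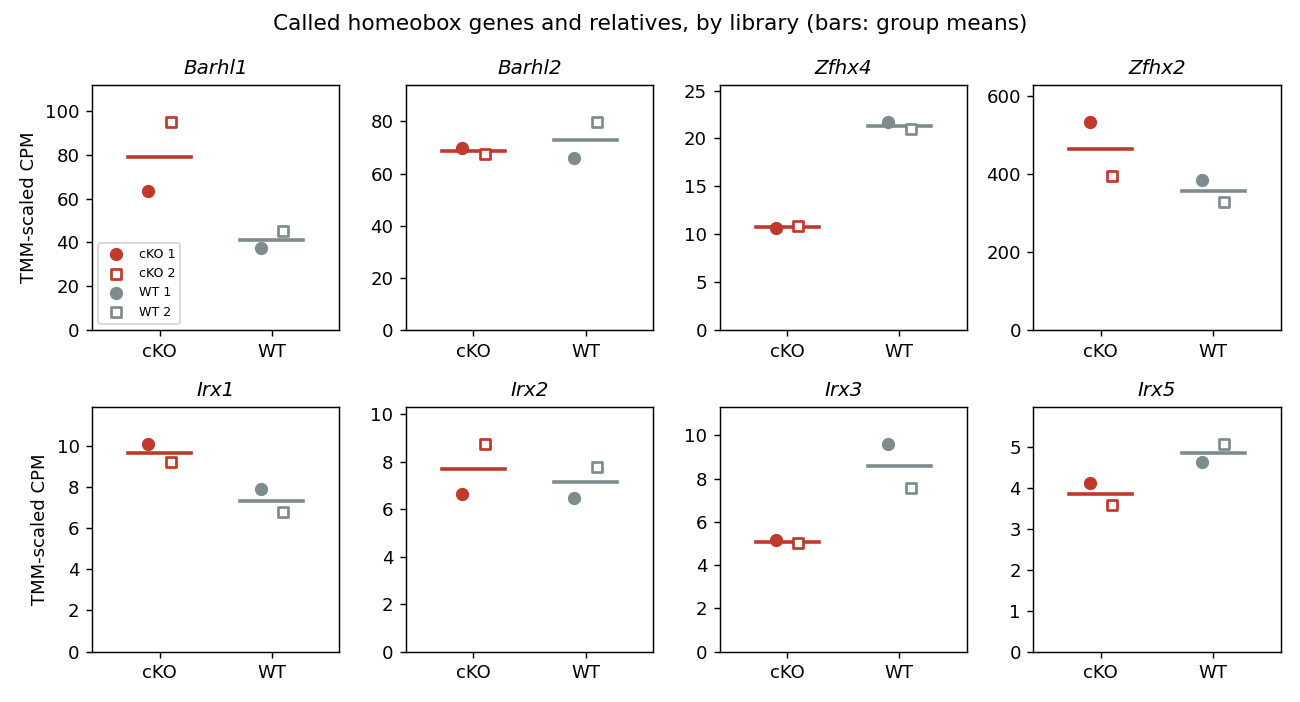
TMM-scaled CPM by library for Barhl1, Barhl2, Zfhx4, Zfhx2 and the Irx genes, with cKO in red on the left and WT in grey on the right of each panel, circles for replicate 1, squares for replicate 2 and lines for group means. The groups are apart for Barhl1, Zfhx4, Zfhx2, Irx1, Irx3 and Irx5 and overlap for Barhl2 and Irx2, and of the Irx genes none passed the test.

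The Iroquois (Irx) genes, which pattern the neural plate and later neuron subtypes, are arranged in clusters. Irx3 (chr8:91798525-91802067) had 5.14 and 5.04 CPM in cKO, against 9.60 and 7.56 CPM in WT. Both cKO libraries lay below both WT libraries, but the difference did not pass (log2 fold change -0.75, SE 0.248, edgeR adjusted p = 0.102). Its cluster neighbour Irx5 (chr8:92357625-92376286) had 4.13 and 3.58 CPM in cKO, against 4.64 and 5.08 CPM in WT (log2 fold change -0.33, SE 0.303, edgeR adjusted p = 0.662). Irx1 (chr13:71957921-71963723), of the other cluster, had 10.1 and 9.19 CPM in cKO, against 7.87 and 6.80 CPM in WT (log2 fold change 0.39, SE 0.220, edgeR adjusted p = 0.401). Its neighbour Irx2 had 6.65 and 8.74 CPM in cKO, against 6.47 and 7.77 CPM in WT, with overlapping groups. The values thus lay on opposite sides of 0 in the 2 clusters, and none of the 4 genes passed. The antisense gene Irx3os, which shares 4.49% of the exon bases of Irx3, had 7 and 9 counts in cKO, against 18 and 15 counts in WT, also without a call.

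Meis and Pbx proteins are homeodomain cofactors that bind DNA together with Hox proteins and with each other. Meis1 had 53.9 and 58.6 CPM in cKO, against 48.9 and 48.4 CPM in WT, without overlap between groups (log2 fold change 0.21, SE 0.098, edgeR adjusted p = 0.290). Pbx3 had 20.6 and 23.5 CPM in cKO, against 14.3 and 20.5 CPM in WT, so that the lower cKO and the higher WT library nearly met (log2 fold change 0.34, SE 0.167, edgeR adjusted p = 0.329). Meis2 was low, with 4.44 and 3.25 CPM in cKO, against 3.56 and 1.19 CPM in WT, and its groups overlapped (log2 fold change 0.70, SE 0.420, edgeR adjusted p = 0.443). Meis3, Pbx2 and Pbx4 all had overlapping groups. Summed over the 3 Meis genes the levels were 86.8 and 97.1 CPM in cKO, against 85.1 and 80.8 CPM in WT, and over the 3 Pbx genes 58.8 and 63.2 CPM in cKO, against 52.8 and 56.4 CPM in WT. Meis1, Meis3, Pbx2 and Pbx3 carried these sums.

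None of the CUT, POU, paired-like and Tlx genes passed the test. Cux1, a CUT factor also found in neurons of the upper cortical layers, had 182 and 179 CPM in cKO, against 181 and 201 CPM in WT. Its relative Cux2 had 51.4 and 50.6 CPM in cKO, against 49.2 and 56.9 CPM in WT. Satb1, a chromatin organiser with a homeodomain, had 77.2 and 105 CPM in cKO, against 89.6 and 81.0 CPM in WT. The groups overlapped for each of these 3 genes. Among POU factors, which pair the homeodomain with a POU-specific domain, Pou6f1 (72.9 and 78.1 CPM in cKO, against 73.7 and 75.9 CPM in WT), Pou3f3 (64.8 and 78.1 CPM in cKO, against 61.2 and 71.9 CPM in WT) and the broadly expressed Pou2f1 were the most abundant. Pou3f1 lay lower in both cKO libraries by a narrow margin, with 4.74 and 3.58 CPM in cKO, against 4.75 and 4.86 CPM in WT. Pou3f4, which is X-linked, had 2.12 and 4.48 CPM in cKO, against 1.94 and 3.02 CPM in WT, with overlapping groups (log2 fold change 0.39, SE 0.414, edgeR adjusted p = 0.711, and -0.23 without cKO 2). Uncx, a paired-like factor, had 68.6 and 89.6 CPM in cKO, against 73.0 and 80.2 CPM in WT. Otx1, from the family that marks forebrain and midbrain, was the lowest of the tested genes, with 0.907 and 3.14 CPM in cKO, against 2.59 and 2.27 CPM in WT (log2 fold change -0.29, SE 0.484, edgeR adjusted p = 0.837, and 0.37 without cKO 1). Tlx3, a selector of glutamatergic fate in the spinal cord, had 17.7 and 24.8 CPM in cKO, against 17.9 and 25.1 CPM in WT. In Uncx, Otx1 and Tlx3 the replicates of a group differed by as much as the groups.

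The Hox genes were silent or nearly so in every library. Counts were found for 2 of 11 Hoxa genes, 2 of 10 Hoxb genes, 1 of 9 Hoxc genes and 3 of 9 Hoxd genes. For a gene without a count, 3 counts is the limit that each library allows, 0.303 and 0.341 CPM in cKO and 0.321 and 0.318 in WT. All Hox genes together summed to 16 counts in cKO 1 (95% exact Poisson interval 9.15 to 26.0) and 7 in cKO 2 (2.81 to 14.4), against 4 in WT 1 (1.09 to 10.2) and 5 in WT 2 (1.62 to 11.7). Both cKO libraries thus lay above both WT libraries, and the intervals of cKO 2 and both WT libraries overlapped broadly. In all, 23 counts in 8 genes were found in cKO, against 9 counts in 3 genes in WT, a ratio per gene count of 2.57 (exact 95% interval 1.14 to 6.30). This interval covers counting error only and leaves out the spread between mice. Without cKO 1 the ratio was 1.66 (0.525 to 5.002), without cKO 2 it was 3.38 (1.40 to 8.66), without WT 1 it was 2.32 (0.862 to 7.80) and without WT 2 it was 2.88 (0.983 to 11.4).

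Single Hox genes had few counts. Hoxc4 had 4 and 0 counts in cKO, against 0 and 0 in WT. Hoxd8, whose promoter is printed above, likewise had 4 and 0 counts in cKO, against 0 and 0 in WT. All 8 counts of these genes thus came from cKO 1, the library with choroid plexus RNA, whose part in them was not tested. Without Hoxc4 and Hoxd8, a choice made after their counts were seen, 15 Hox counts remained in cKO, against 9 in WT, a ratio of 1.67 (0.686 to 4.34). Hoxd1, at one end of its cluster, had 5 and 3 counts in cKO, against 1 and 3 in WT, a ratio of 2.01 (0.538 to 9.11). Hoxd13, at the other end, had 1 and 1 counts in cKO, against 1 and 0 in WT. Hoxb3 went the other way, with 1 and 0 counts in cKO, against 2 and 2 in WT. Hoxa7 had 1 and 1 counts in cKO, against 0 and 0 in WT. Hoxb2 had 0 and 1 counts in cKO, against 0 and 0 in WT. By cluster, Hoxd had 10 and 4 counts in cKO, against 2 and 3 in WT, and no other cluster had more than 4 counts in a library. Of transcripts antisense to or between Hox genes, Hotairm1 had 3 and 0 counts in cKO, against 0 and 0 in WT, while Haglr of the Hoxd cluster had 1 and 1 counts in cKO, against 3 and 4 in WT.

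The 6 other homeobox genes under 1 CPM all had counts in both genotypes. Evx2 (chr2:74652991-74659557), which lies beside Hoxd13 at the end of the Hoxd cluster, had 7 and 7 counts in cKO, against 2 and 1 in WT, a ratio of 4.69 (1.31 to 25.4, counting error only). Its cKO libraries were level with each other and above both WT libraries, and in edgeR without the filter on low counts p was 0.0548 (adjusted p = 0.536). Lhx9, a LIM factor, had 1 and 8 counts in cKO, against 1 and 2 in WT. Lmx1b, a LIM factor of the roof plate and of hindbrain monoaminergic neurons, had 6 and 1 counts in cKO, against 11 and 2 in WT, the highest value being in the WT 1 library with noradrenergic neuron RNA. Pou4f1, a POU factor of sensory and brainstem neurons, had 1 and 4 counts in cKO, against 1 and 4 in WT. Gbx2, which helps to place the boundary of midbrain and hindbrain, had 3 and 0 counts in cKO, against 1 and 0 in WT. Lhx2, a forebrain LIM factor, had 0 and 1 counts in both genotypes. Together these 6 had 18 and 21 counts in cKO, against 16 and 10 in WT, a ratio of 1.51 (0.894 to 2.58).

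**Figure D4:**
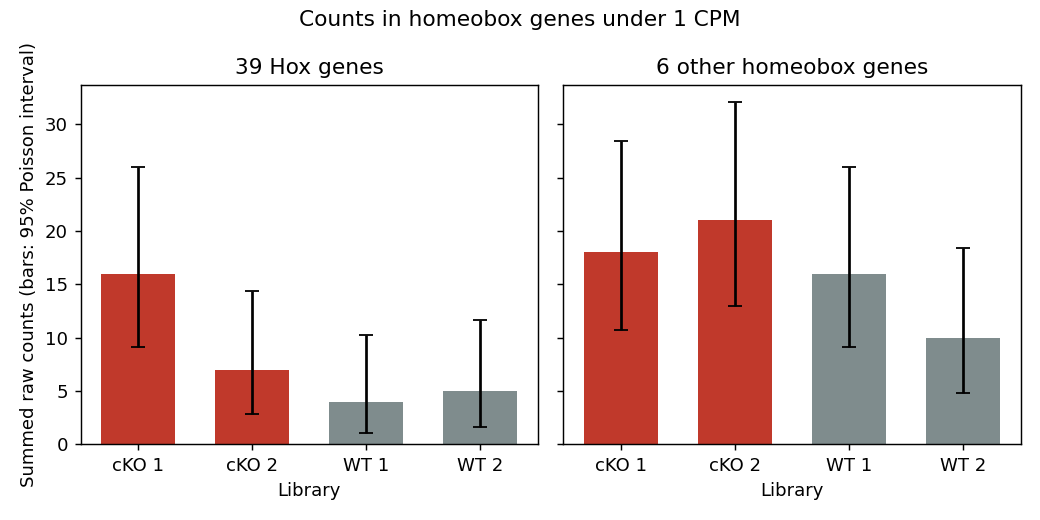
Summed raw counts per library in the 39 Hox genes (left) and in the 6 other homeobox genes under 1 CPM (right), with cKO in red and WT in grey and error bars for the exact 95% Poisson interval of each sum. The Hox sums were 16 and 7 in cKO against 4 and 5 in WT, and only the interval of cKO 1 is clear of most of the WT range.

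Over all 45 homeobox genes under 1 CPM the sums were 34 and 28 counts in cKO, against 20 and 15 in WT, a ratio of 1.78 (1.16 to 2.77, counting error only). On the log2 scale the ratio of mean sums was 0.82, with 0.68 without cKO 1 and 0.63 to 1.05 over leaving out each library. More counts in cKO than in WT were found for 10 of the 14 with counts, and for 7 of the 8 Hox genes, against 40.7% of all 12384 genes under 1 CPM that had counts. Counts in cKO libraries only were found for 5 of the 14, all of them Hox genes (Hoxa7, Hoxb2, Hoxc4 and Hoxd8 among them), against 17.6% of such genes, and counts in WT libraries only for none of the 14, against 23.6%. All such low genes together summed to 25442 and 22551 counts in cKO, against 26262 and 25369 in WT. With the filter on low counts removed, edgeR passed none of the 14 (adjusted p from 0.536 to 0.999). DESeq2 could not pass any of the 14, since it gave no adjusted p even to more abundant genes such as Irx3. Neither edgeR nor DESeq2 gave an unadjusted p under 0.05 for any of the 14.

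The rest of the homeobox family gave a wider view. Of the 140 other homeobox genes that were found out of a list of 141, 46 had no count and 49 were tested. In cKO 3 were higher and 2 lower, which is 10.2% of the 49, beside 4.04% of all tested genes. That difference rests on 5 genes. The median log2 fold change was 0.09, against 0.0036 over all tested genes. En1, needed for the formation of midbrain and cerebellum, had 0.605 and 0.896 CPM in cKO, against 11.5 and 14.04 CPM in WT (log2 fold change -4.08, SE 0.334, edgeR adjusted p = 1.57e-07). This difference was wider than that of any of the 27 genes above. Its relative En2, the most abundant of the 140, had 216 and 204 CPM in cKO, against 225 and 250 CPM in WT, without a call. Dbx2, a patterning factor of neural progenitors, had 2.42 and 3.02 CPM in cKO, against 5.39 and 8.96 CPM in WT (log2 fold change -1.40, SE 0.323, edgeR adjusted p = 0.0153). Of the genes that were higher, Pax6, which granule neurons and their precursors express, had 201 and 217 CPM in cKO, against 178 and 164 CPM in WT (log2 fold change 0.29, SE 0.075, edgeR adjusted p = 0.0333). Pou2f2, a relative of Pou2f1, had 32.5 and 35.5 CPM in cKO, against 25.2 and 21.2 CPM in WT (log2 fold change 0.55, SE 0.131, edgeR adjusted p = 0.0189). Dmbx1, a paired-like factor of the embryonic midbrain, had 11 and 18 counts in cKO, against 3 and 1 counts in WT (log2 fold change 2.77, SE 0.742, edgeR adjusted p = 0.0385). Without the filter on low counts the En1 call held (edgeR adjusted p = 1.75e-04) and those of Dbx2, Pax6, Pou2f2 and Dmbx1 were lost (edgeR adjusted p from 0.0835 to 0.159), and all 5 were lost in edgeR without cKO 1 or without cKO 2, fits in which no gene of the whole table passed. En1 was at -3.81 and -4.37 on the log2 scale in those fits. DESeq2 called En1 lower without cKO 2 (-4.40) and without WT 2 (-3.95). It gave En1 no adjusted p with all libraries, without cKO 1 or without WT 1. With all libraries DESeq2 passed neither Pax6 (adjusted p = 0.0649) nor Pou2f2 (adjusted p = 0.115), and it gave Dbx2 and Dmbx1 no adjusted p. Of the other abundant genes, Zhx3, Hopx and Zeb2 were at mean levels from 101 to 134 CPM and did not pass.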

How the data were processed

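Per the study's methods and the submitters' processing notes, reads of 150 bp from poly(A) RNA were trimmed with Trimmomatic 0.38, aligned to mm10 with STAR 2.7.2b and counted per gene over exons with HTSeq. The deposited values were raw counts by gene symbol, and the strand setting is not given in the sources used here. Between 39.0% and 40.5% of entries fell in genes. Entries that name no gene were left out, the most numerous being those outside any annotated feature (48.8% to 49.6%). HTSeq leaves out reads that it cannot assign to a single gene. Groups and replicate numbers came from sample titles.

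Counts were filtered with filterByExpr, scaled by TMM and tested with edgeR 4.0.16 (glmQLFit, glmQLFTest, two-sided) in R 4.3.3, with Benjamini-Hochberg adjustment over 16617 genes and a threshold of 0.05. Replicates were more unlike than counting error alone allows (chi-square over its degrees of freedom 3.99 in cKO, 3.56 in WT), and the common dispersion gave a biological coefficient of variation of 7.33%. Genes with a mean under 1 CPM are given as raw counts. Ratios of summed counts are per gene count, with exact 95% intervals that cover counting error only. Identifiers and coordinates came from GENCODE M21 (GRCm38). The fit was tested on simulated data. Alternatives were other scalings, other filters, DESeq2 1.42.0, limma-voom 3.58.1, a replicate block and leaving out each library; DESeq2 without each library and the Hox sum without Hoxc4 and Hoxd8 or without each library were added after values were seen.

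Genes were named by rule: Kdm6b; every one of the 72, in full where called or among the 10 largest log2 fold changes; called genes and the 6 most abundant of the other homeobox genes; antisense neighbours with at least 10 counts. A few genes named by these criteria are not reported here. Hotairm1 and Haglr, and the full values of Meis1 and Barhl2, were added after values were seen. The 72 genes and all lists were chosen with earlier results of these data known.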

Additional observations from a re-analysis of the deposited data

How the results depend on the processing

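The count of called genes over the whole table, 671, moved to 177 without the filter on low counts and 312 with DESeq2. Leaving out each library gave 0 to 507 in edgeR (0 without cKO 1, 0 without cKO 2, 368 without WT 1, 507 without WT 2) and 241, 83, 38 and 66 in DESeq2 in the same order. The called share that was lower in cKO was 53.8%, against 40.2% with library size alone and 63% with upper-quartile factors. Of the 72 homeobox genes, 3 were called, 2 with upper-quartile factors, without the filter and with DESeq2 (Barhl1 and Zfhx4 each time), 0 to 3 in edgeR and 0 to 1 in DESeq2 when each library was left out. Kdm6b lost its call without the filter (log2 fold change -0.33, adjusted p = 0.0722) and on leaving out any library, with -0.37 to -0.28 in edgeR and -0.37, -0.28, -0.33 and -0.32 in DESeq2. Directions were followed through the alternatives for 12 of the 72 homeobox genes, and not for the other tested ones. Among these 12, directions reversed in uncalled genes only. The genes that reversed were Pou3f4 without cKO 2 (-0.23, DESeq2 -0.22, and up to 0.85 without another library), Otx1 without cKO 1 (0.37, and down to -1.41) and Barhl2 without WT 2 (0.062, DESeq2 0.066, and down to -0.21). The log2 ratio of summed counts of the low genes, 0.82, was 1.32 with the split at 0.5 CPM, which moves Lmx1b out of the sum. Of 45 alternative values of the 3 called homeobox genes, 18 lost the call (4 of 15 for Barhl1, 10 of 16 for Zfhx2 and 4 of 14 for Zfhx4) and none reversed. These totals leave out fits in which DESeq2 gave no adjusted p and so made no call. They were Barhl1 without WT 1, and Zfhx4 without cKO 1 and without WT 1.

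Replicate numbers did not pair the libraries by the labels, and their deviations correlated at r = 0.0429. With the number as a replicate block 1130 genes were called, of the 72 homeobox genes the same 3. Where leaving out a library left 1 in a group, its spread was taken to be that of the other genotype.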
